A study of Mus musculus with 4 samples.

Results

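Amino acid transporter genes were taken as the genes of the SLC1, SLC3, SLC6, SLC7, SLC36, SLC38 and SLC43 families, chosen by symbol and by a total of at least 20 unique molecular identifiers (UMIs, 1 for each captured transcript) over all libraries. Slc7a11 was left out by the rule. Of 31253 genes in the count matrices, 61 had a symbol of these families and 30 of them passed. The 30 others that were not left out by name were under 20 UMIs, and 13 of these had none. The rule used no difference between diets or cell types. The label holds loosely for some members: Slc6a8 carries creatine, Slc6a4 serotonin, Slc6a6 taurine and Slc43a3 purine nucleobases.

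The cells came from left ventricles of C57BL/6N mice and were sorted for red fluorescent protein (RFP), which a tamoxifen-inducible Cre recombinase under the Cdh5 promoter switches on from the Rosa26 locus. Cdh5 marks endothelial cells (ECs), so RFP traces cells that were ECs when tamoxifen was given, with 5 injections from 7 weeks of age. The 2 libraries NC 1 and NC 2 came from mice on Chow diet, the control with 10% of energy from fat. The 2 libraries HFpEF 1 and HFpEF 2 came from mice on a high-fat diet plus L-NAME, with 60% of energy from fat and 0.5 mg/mL of the nitric oxide synthase inhibitor L-NAME in the water, a model of HFpEF, heart failure in which ejection fraction is preserved, and both regimens ran for 20 weeks. In the study such mice carried the floxed Scarb1 gene on both copies or on 1, and the labels do not say which genotype is behind which library, so diet was compared without regard to genotype. The number of mice behind each library is not given in the sources used here, so that p-values measure the spread between libraries only.

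Amino acids cross membranes on carriers that differ in what drives them. Sodium-coupled carriers of the SLC1, SLC6 and SLC38 families pull their substrates into the cell, proton-coupled SLC36 carriers and several SLC38 members sit on lysosomes, and SLC7 exchangers trade one amino acid for another. The exchanger light chains Slc7a5, Slc7a6, Slc7a7 and Slc7a8 work only when bound to the heavy chain glycoprotein encoded by Slc3a2, while the cationic carriers Slc7a1 and Slc7a2 bring in arginine, the substrate of nitric oxide synthase.

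Members with the most contrasting distribution over vascular cell types are shown by the bases in front of their start. Slc38a11 and Slc6a17 were, of the 4 classes compared here, almost confined to mural cells, the pericytes and smooth muscle cells around vessels, and Slc1a1, the glutamate and cysteine transporter EAAT3, was higher in capillary ECs than in the other classes. The sequences are from RefSeq, read 5′ to 3′ on the strand of the gene, with the base before the start at the right. Capitals mark GGGCGG on either strand. The promoter of Slc38a11 lies on the minus strand at chr2:65364027-65364276, that of Slc6a17 on the minus strand at chr3:107518019-107518268 and that of Slc1a1 on the plus strand at chr19:28834885-28835134, all in build GRCm38.
Slc38a11: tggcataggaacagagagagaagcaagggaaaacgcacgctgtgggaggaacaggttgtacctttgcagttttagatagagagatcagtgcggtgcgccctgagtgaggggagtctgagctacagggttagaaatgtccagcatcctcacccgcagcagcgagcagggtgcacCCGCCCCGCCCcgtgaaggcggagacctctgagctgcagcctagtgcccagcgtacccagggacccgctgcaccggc
Slc6a17: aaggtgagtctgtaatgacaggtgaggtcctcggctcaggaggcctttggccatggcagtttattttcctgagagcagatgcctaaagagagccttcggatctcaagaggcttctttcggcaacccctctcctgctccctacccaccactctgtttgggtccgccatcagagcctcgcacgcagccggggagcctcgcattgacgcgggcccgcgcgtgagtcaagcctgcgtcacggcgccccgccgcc
Slc1a1: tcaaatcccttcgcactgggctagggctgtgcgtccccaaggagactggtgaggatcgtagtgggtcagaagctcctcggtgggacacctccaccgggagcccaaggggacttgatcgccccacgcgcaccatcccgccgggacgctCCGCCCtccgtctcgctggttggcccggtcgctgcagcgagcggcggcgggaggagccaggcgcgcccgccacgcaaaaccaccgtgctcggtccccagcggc

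Promoters of 250 bases were found for 22 of the 30 members, 34 promoters in all because some genes have several starts. GGGCGG stood in 21 of the 34 (61.8%) and in 32.7% of all 32851 promoters. CCAAT stood in 23.5% of the member promoters and in 33.8% of all. TATAAA stood in 3 of the member promoters, of Slc38a4, Slc43a1 and Slc7a1, and in 12.4% of all. TGATGCAA stood in 1, of Slc7a7, and in 0.791% of all, CANNTG in 58.8% against 66.2%, and the CArG box in none of the 34 against 1.47%. All were searched on both strands. These are matches of letters in this window only. Over all promoters the median GC content was 52.4%, and the member promoters lay between 46% and 77.2%. The shares were not compared at like GC content. Some windows of Slc7a6 and of Slc7a7 overlapped, so that a match could count more than once.

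The matrices held 41843 cells, 7465 and 6924 in the NC libraries, against 5769 and 21685 in the HFpEF libraries. After the authors' filter (over 200 genes and under 20% mitochondrial UMIs) and removal of cells with 1% or more hemoglobin UMIs, 39829 cells were used. The median UMIs per cell were 3753 and 4125 in the NC libraries, against 1736 and 1618 in the HFpEF libraries. Any 2 libraries shared 10 to 42 cell barcodes. Clusters were built from other genes than the members and named by markers, which gave 21392 capillary-like, 6050 artery-like, 2278 vein-like and 1577 mural-like cells. All ECs together were the 37786 cells of every EC cluster, 7587 of them unnamed. The unnamed clusters were led by Ppbp, Pf4 and Hbb-bs or by Myl2, Mb and Myl3. They held 741 and 609 cells in the NC libraries against 1292 and 4945 in the HFpEF libraries, with medians of 796 to 1082 UMIs. The UMIs of each class were summed per library and are given as CPM, the UMIs of a gene per 1000000 UMIs of that class in that library. Because a UMI marks 1 end of 1 transcript, CPM compares genes per molecule without division by length. The depth of the class sums ranged from 6203117 to 27019328 UMIs per library in capillary ECs and from 723029 to 2405932 in mural cells. Markers set artery and vein ECs apart from capillary ECs: artery markers summed to between 3509 and 4369 CPM in artery ECs against 702 to 866 in capillary ECs, and vein markers to between 1540 and 2050 CPM in vein ECs against 248 to 305. In the mural class artery markers summed to between 3105 and 4265 CPM and vein markers to between 975 and 1040 CPM. The artery list therefore did not set mural cells apart from artery ECs. The mural class also held EC markers: 8 general EC markers summed to between 3000 and 3506 CPM there, against 5876 to 6756 in capillary ECs, and 12 mural markers to between 14040 and 16890 CPM, against 121 to 209. All 12 mural markers had UMIs in each library. Fibroblast markers summed to between 335 and 371 CPM in the mural class and to at most 13.1 in capillary ECs.

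A small number of transporters made up most of the pool. In capillary ECs Slc6a6, the taurine transporter, Slc38a2, the sodium-coupled neutral amino acid transporter SNAT2, Slc43a3 and Slc3a2 held 85.8% of the 115546 member UMIs. In artery ECs these 4 held 91%, in vein ECs 87.4% and in mural cells 85.3%. The other members stood far below: 11 of the 30 averaged under 1 CPM in capillary ECs and 11 at least 10 CPM. In mural cells 5 averaged under 1 CPM. The rarest were Slc38a4, with no UMI in the 4 classes, Slc7a8 with 2 UMIs in capillary ECs and 3 in mural cells, Slc43a1 with 10 and 7, Slc1a4 with 19 and 11 and Slc38a3 with 40 and 1. Slc6a4 had 21 UMIs in artery ECs and 2 in capillary ECs, and Slc7a14 106 in capillary ECs and 18 in vein ECs, of which 10 lay in HFpEF library 1.

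Among the SLC6 carriers, Slc6a6 stood at 398 and 462 CPM in the NC libraries, against 393 and 695 CPM in the HFpEF libraries of capillary ECs. Slc6a8, the creatine transporter, was the next, at 12.1 to 16.2 CPM, and the glycine transporter Slc6a9 had 31 UMIs in 21392 capillary cells. Within the SLC38 family Slc38a2 was at 427 to 510 CPM and Slc38a10, a family member of less settled function, at 49.7 to 63.3 CPM. Slc38a9, the lysosomal arginine sensor of mTORC1 signalling, was at 13.6 to 16.2 CPM. The lysosomal glutamine exporter Slc38a7 was at 4.19 to 5.81 CPM and Slc38a6 at 5.64 to 8.43 CPM. Of the SLC36 family Slc36a4 was at 14.03 to 15.2 CPM and Slc36a1 at 4.96 to 6.79 CPM, levels like that of Slc38a9 or below.

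Of the genes of the heteromeric exchangers, the heavy chain Slc3a2 stood at 122 to 167 CPM in capillary ECs. The 3 light chains with over 100 UMIs there summed to far less: Slc7a7, which exports cationic amino acids, was at 4.998 to 7.99 CPM, Slc7a5, the large neutral amino acid exchanger LAT1, at 4.19 to 10.7 CPM and Slc7a6 at 1.82 to 3.06 CPM. The heavy chain thus outnumbered its partners at the transcript level in each class, as the plot of members by class and library shows. Slc7a1, the more abundant of the arginine carriers here, was at 18.5 to 27.7 CPM, and its relative Slc7a2 had 25 UMIs. Slc1a5, the glutamine exchanger ASCT2, was at 25.2 to 35.6 CPM and Slc1a1 at 21.8 to 31.8 CPM.

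**Figure D1:**
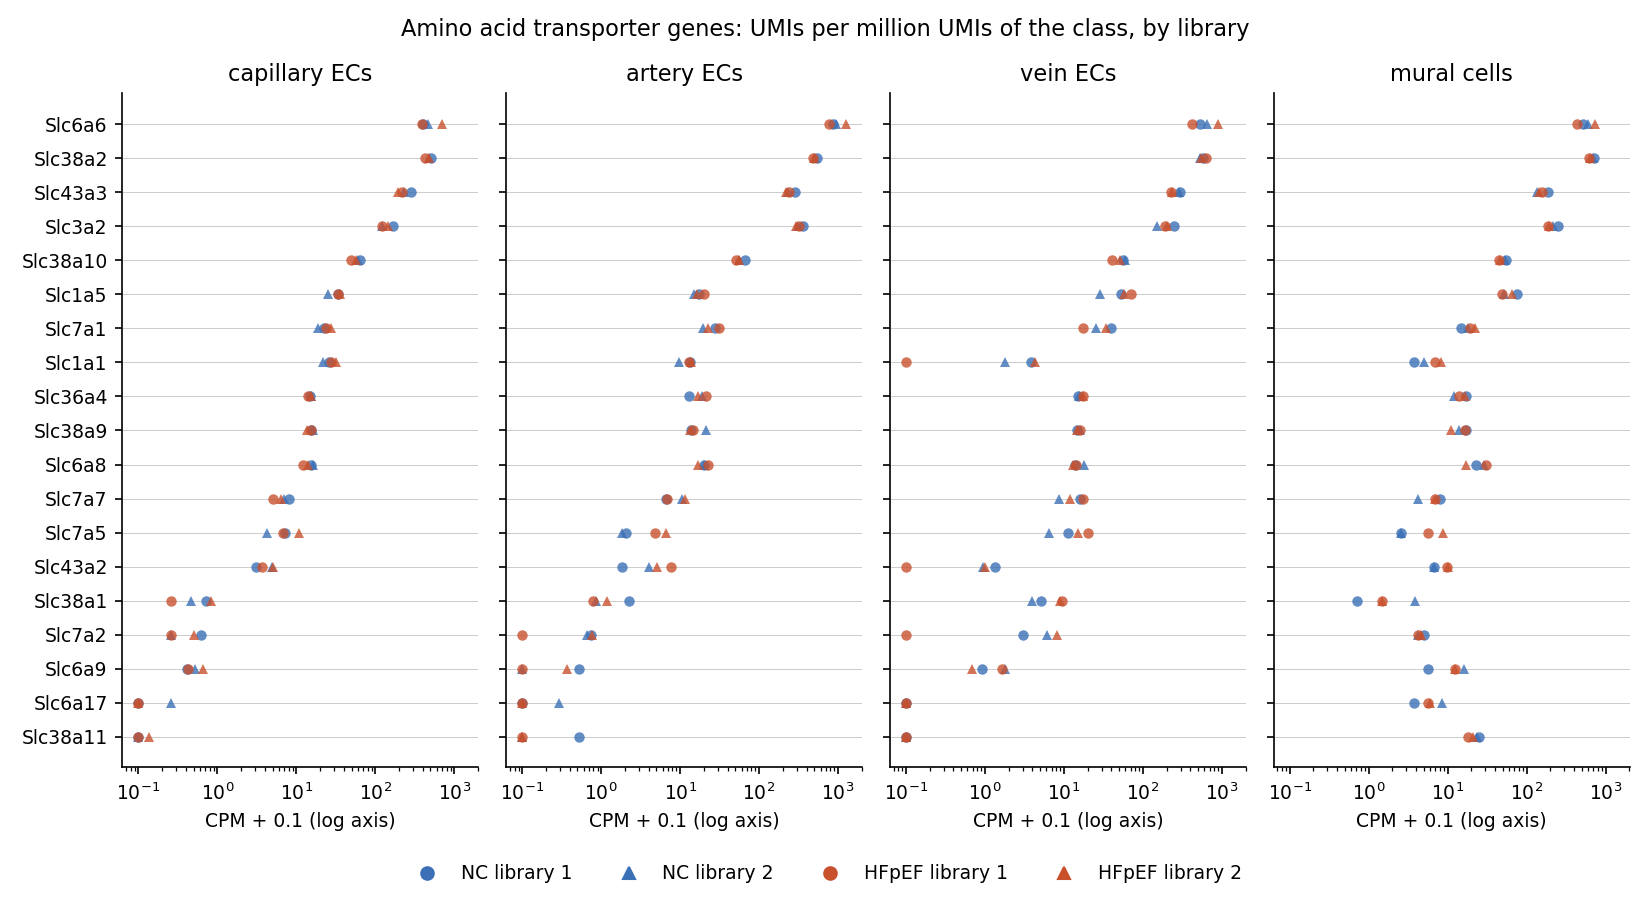
Levels of the 19 named transporter genes, as UMIs per 1000000 UMIs of the cell class (CPM, plus 0.1 to show zeros, on a log axis), in capillary, artery and vein ECs and mural cells. Each point is 1 library, blue for NC and red for HFpEF, a circle for library 1 and a triangle for library 2. Slc6a6, Slc38a2, Slc43a3 and Slc3a2 sit above 100 CPM in each class, and Slc38a11 and Slc6a17 leave the floor in mural cells.

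Vascular classes differed in which transporters they carried. Each class was compared with capillary ECs within libraries (edgeR's quasi-likelihood test with library as a block and Benjamini-Hochberg adjustment over 11406 genes, 23 of the members among them). In artery ECs 3 members were higher and 3 lower, in vein ECs 9 higher and 3 lower, and in mural cells 11 higher and 5 lower. The share of members called was 26.1% in artery ECs beside 32.2% of all genes, 52.2% in vein ECs beside 25.9%, and 69.6% in mural cells beside 48.9%. The count filter kept any gene that was high enough in 1 class. Slc38a11, Slc6a17, Slc6a9, Slc7a2 and Slc38a1 had few UMIs in capillary ECs and were tested because of vein ECs or mural cells. Their rises there were thus partly set by the filter, and the shares of members and of all genes both include such genes. In all, 17 members differed in at least 1 class and 5 in all 3: Slc6a6 (chr6:91684053-91759066), Slc3a2 (chr19:8706882-8723369), Slc1a5 (chr7:16781340-16798274), Slc1a1 (chr19:28835049-28913960) and Slc7a5 (chr8:121881150-121907694, all in GRCm38). The classes were made by clustering the same cells on other genes, so these p-values describe classes so built.

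Artery ECs carried more taurine transporter and more exchanger heavy chain. Slc6a6 stood at 871 and 955 CPM in the NC libraries, against 773 and 1262.5 CPM in the HFpEF libraries of artery ECs, above capillary ECs in 4 of 4 libraries, with a log2 difference of 0.91 (SE 0.051, adjusted p = 2.3e-15). Slc3a2 was at 359, 312, 324 and 296 CPM against 167, 122, 122 and 146 CPM in capillary ECs of the same libraries, a log2 difference of 1.11 (SE 0.063, adjusted p = 2.5e-15). Neither gene's artery values overlapped its capillary values. Slc6a8 was higher by 0.28 (SE 0.11, adjusted p = 0.044), a call that was lost without NC library 1 (adjusted p = 0.13), NC library 2 (0.074) or HFpEF library 1 (0.12) and that turned to -0.03 when cells were classed by their own markers.

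Artery ECs were low in 3 carriers. Slc1a1 stood at 13.4, 9.70, 12.9 and 13.6 CPM, lower than in capillary ECs, with a log2 difference of -1.22 (SE 0.11, adjusted p = 1.3e-10). Slc1a5 was at 15.02 to 19.7 CPM, a log2 difference of -1.04 (SE 0.11, adjusted p = 5.4e-09), and Slc7a5 at 1.71 to 6.46 CPM, a log2 difference of -1.09 (SE 0.20, adjusted p = 5.3e-05). Slc3a2 and its partner Slc7a5 therefore differed in opposite directions in artery ECs. The Slc7a5 call was lost when cells were classed by their own markers (log2 difference -0.45, adjusted p = 0.21), and the calls of Slc1a1, Slc1a5, Slc6a6 and Slc3a2 were kept.

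The artery class held 2 clusters, and the pattern was graded between them. In the cluster led by Fbln5, Clu and Mgp (2452 cells) Slc6a6 was at 992, 1115, 927 and 1471 CPM, and Slc3a2 at 413, 398, 381 and 356 CPM. In the cluster led by Hey1 (3598 cells) Slc6a6 was at 697, 680.2, 649 and 1083 CPM, and Slc3a2 at 279, 165, 277 and 245 CPM. Both genes were higher in the first cluster in 4 of 4 libraries. Slc1a1 went the other way, at 6.10 CPM over the Fbln5 cluster and 19.8 CPM over the Hey1 cluster, between that and capillary ECs. These cluster values are a description without a test.

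Vein ECs differed from capillary ECs in carriers of arginine, glutamate and neutral amino acids. Slc7a2, a cationic carrier, stood at 2.90 and 5.93 CPM in the NC libraries, against 0 and 8.04 CPM in the HFpEF libraries of vein ECs, 48 UMIs in all against 25 in the far deeper capillary sum. It was higher in 3 of 4 libraries, with a log2 difference of 3.78 (SE 0.41, adjusted p = 1.1e-08). Slc38a1, the neutral amino acid transporter SNAT1, was at 4.98, 3.81, 9.41 and 8.93 CPM (57 UMIs) against 0.161 to 0.740 CPM in capillary ECs, a log2 difference of 3.42 (SE 0.39, adjusted p = 2.3e-08), and its vein values lay above its capillary values in 4 of 4 libraries. The leukocyte cluster of these libraries held Slc38a1 at 55.7 CPM, and in the vein class the 4 neutrophil markers summed to 43.2 CPM in HFpEF library 2 and to 0 in the 3 others, T cell markers to between 1.27 and 2.38 CPM and macrophage markers to between 10.6 and 15.7 CPM. The part of leukocyte transcripts in the vein level of Slc38a1 was not tested.

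The exchangers were also higher in vein ECs. Slc7a7 stood at 15.8, 8.47, 17.3 and 11.9 CPM against 4.998 to 7.99 CPM in capillary ECs, a log2 difference of 0.78 (SE 0.21, adjusted p = 0.0045). Slc7a5 was higher by 0.59 (SE 0.19, adjusted p = 0.022) and Slc3a2 by 0.41 (SE 0.071, adjusted p = 3.0e-05). In vein ECs the heavy chain and 2 of its light chains were thus higher together. The Slc7a5 difference was lost without NC library 1 (adjusted p = 0.057) or HFpEF library 1 (0.11). Slc1a5 was at 52.3, 28.4, 70.6 and 57.2 CPM, higher by 0.53 (SE 0.11, adjusted p = 0.00029), and Slc6a6 was higher by 0.28 (SE 0.054, adjusted p = 0.00012). Slc7a1 was higher by 0.37 (SE 0.13, adjusted p = 0.034) and Slc38a2 by 0.16 (SE 0.053, adjusted p = 0.023). Both calls rested on single libraries: that of Slc7a1 was lost without NC library 1 (log2 difference 0.19, adjusted p = 0.43) or NC library 2 (0.084), and that of Slc38a2 without HFpEF library 1 (0.08, adjusted p = 0.26) or NC library 1 (0.057).

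There were 3 members that were lower in vein ECs. Slc1a1 had 27 UMIs there, at 3.73 and 1.69 CPM in the NC libraries, against 0 and 4.17 CPM in the HFpEF libraries. In capillary ECs it was at 21.8 to 31.8 CPM. The log2 difference was -3.22 (SE 0.20, adjusted p = 2.6e-14), the largest fall of a member in the 3 class comparisons. Slc43a2, the neutral amino acid carrier LAT4, had 8 UMIs, at 0 to 1.25 CPM against 2.96 to 4.96 CPM, a log2 difference of -2.28 (SE 0.43, adjusted p = 8.9e-05). Slc38a10 was lower, at -0.23 (SE 0.075, adjusted p = 0.022), a call lost without NC library 1 (adjusted p = 0.11), HFpEF library 1 (0.057) or HFpEF library 2 (0.12). With cells classed by their own markers, 5 vein calls remained: Slc1a1, Slc1a5, Slc3a2, Slc43a2 and Slc7a2. Slc38a1 was too low to be tested in those sums.

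Mural cells held transporters that ECs hardly carried. Slc38a11 (chr2:65316430-65364034), a little studied SLC38 member, stood at 24.996 and 23.7 CPM in the NC libraries, against 17.98 and 20.9 CPM in the HFpEF libraries of mural cells (157 UMIs). It had 1 UMI in capillary ECs, 2 in artery ECs and none in vein ECs, where 3 UMIs would be 0.342 CPM. Its pooled level was 22.5 CPM in mural cells and 0.014 CPM in capillary ECs, a ratio of 1610 with a 95% exact interval of 285 to 64100 that covers counting error only. No other member separated the classes as widely.

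Slc6a17 (chr3:107467543-107518018), a vesicular carrier of neutral amino acids best known from neurons, had 43 UMIs in mural cells, at 3.66, 8.31, 5.53 and 5.91 CPM, and 3 UMIs in capillary ECs. The ratio of the pooled levels was 147 (95% exact interval 47.1 to 742). Slc6a9 was at 5.49, 15.8, 12.4 and 12.3 CPM (83 UMIs) against 0.311 to 0.555 CPM in capillary ECs, a log2 difference of 4.57 (SE 0.33, adjusted p = 3.3e-13). Slc7a2 was at 4.15 to 4.88 CPM (31 UMIs), a log2 difference of 3.55 (SE 0.47, adjusted p = 1.5e-07). These 3 genes and Slc38a11 were above capillary ECs in 4 of 4 libraries. Slc38a1, at 0.61 to 3.74 CPM (14 UMIs), was higher by 1.77 (SE 0.60, adjusted p = 0.014), which was lost without NC library 2 (0.68, adjusted p = 0.55).

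Of the abundant members, Slc38a2 stood at 719, 686, 617 and 631 CPM in mural cells, higher than in capillary ECs by 0.38 (SE 0.053, adjusted p = 4.4e-07). Slc1a5 was at 48.4 to 75.6 CPM, higher by 0.86 (SE 0.11, adjusted p = 5.2e-08), Slc3a2 by 0.50 (SE 0.072, adjusted p = 7.7e-07), Slc6a8 by 0.56 (SE 0.14, adjusted p = 0.00098) and Slc43a2 by 0.81 (SE 0.25, adjusted p = 0.0085). Slc43a3 was at 184, 137, 155 and 143 CPM, lower, at -0.71 (SE 0.065, adjusted p = 8.8e-11), and Slc1a1 at 3.66 to 8.19 CPM, lower, at -2.27 (SE 0.18, adjusted p = 4.0e-12). These 2 falls stood beside an EC marker sum that was also lower in mural cells than in capillary ECs, and the part of EC transcripts in the mural levels was not tested. Slc38a10 was lower, at -0.33 (SE 0.081, adjusted p = 0.00085), Slc7a1 at -0.39 (SE 0.16, adjusted p = 0.043) and Slc7a5 at -0.72 (SE 0.27, adjusted p = 0.028). Slc6a6 was higher by 0.15 (SE 0.055, adjusted p = 0.026), which turned to -0.12 without the 5% of cells with most UMIs.

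Several mural calls rested on 1 library or on how cells were classed. The call of Slc6a6 was lost without NC library 1 (adjusted p = 0.49) or NC library 2 (0.41), and that of Slc7a5 without NC library 1 (0.12) or NC library 2 (0.060). The call of Slc7a1 was lost without NC library 1 (0.088) or HFpEF library 2 (0.089), and that of Slc43a2 without HFpEF library 2 (0.068). When cells were classed by their own markers, the mural sums fell to 90941 to 281320 UMIs and the calls of Slc1a1 and Slc43a3 remained. Slc38a11, Slc6a17, Slc6a9 and Slc38a1 were too low to be tested in those sums.

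**Figure D2:**
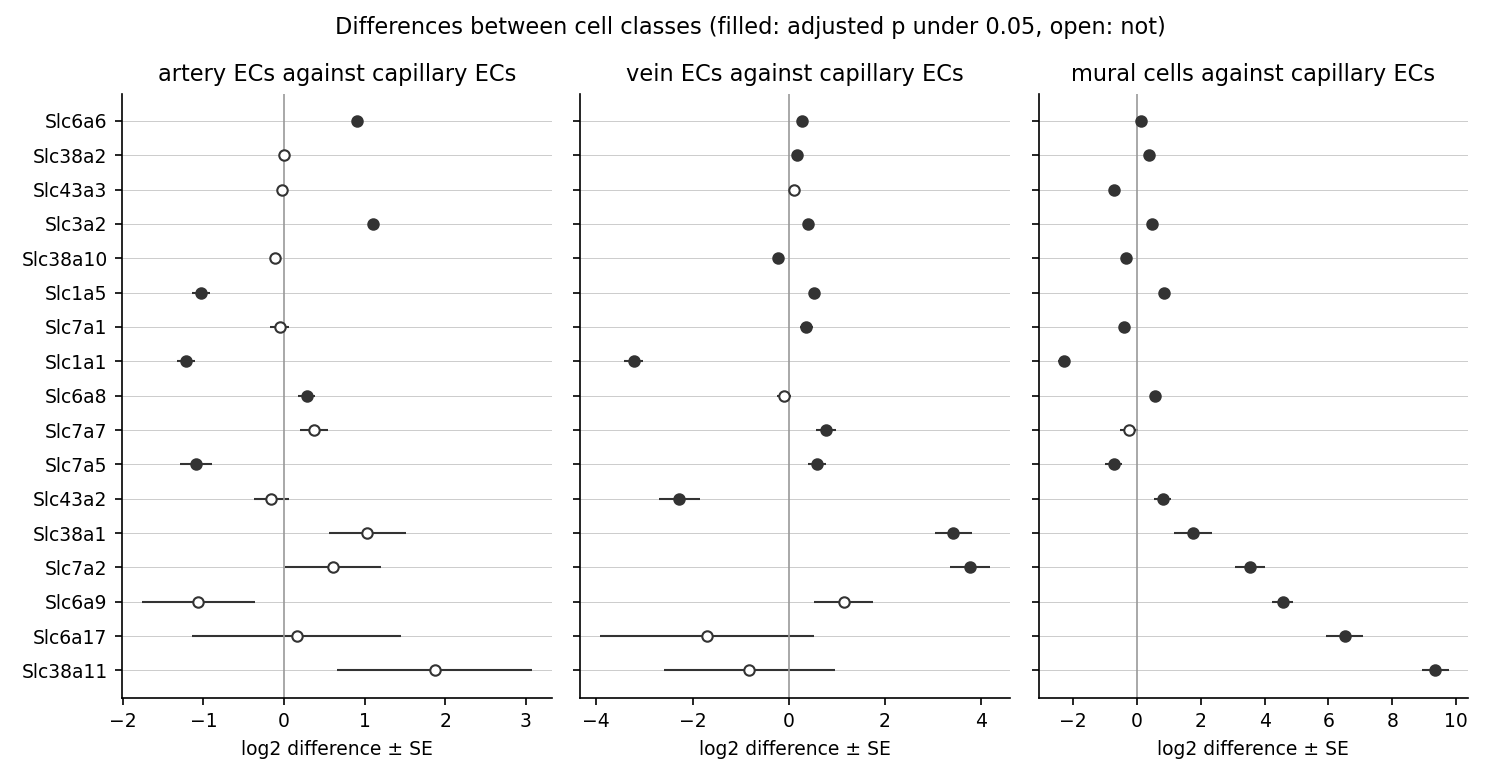
Differences of artery ECs, vein ECs and mural cells from capillary ECs for the 17 members called in at least 1 of the 3 comparisons, as log2 differences with the standard error from edgeR over 4 libraries. Filled points have an adjusted p under 0.05, open points do not, and the horizontal axes differ between the panels. Slc1a1 lies left of 0 in all 3 panels and Slc3a2 right of 0, and the fitted size of Slc38a11 in mural cells depends on 1 capillary UMI.

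Capillary ECs were themselves uneven. Over their 8 clusters, pooled over libraries, Slc7a5 ranged from 1.91 CPM in the cluster led by Timp4 and Adh1 to 14.3 CPM in that led by Pgf, Apln and Ccl2. Slc1a5 reached 53.0 CPM and Slc7a1 34.9 CPM in the same Pgf cluster, the highest of the 8 for both, while Slc6a6 was lowest there, at 307 CPM. Slc3a2, the heavy chain, was also lowest in the Pgf cluster, at 110.3 CPM. Of the 3023 cells of that cluster 2040 came from HFpEF library 2, and by library Slc1a5 was highest there in the HFpEF libraries alone. Slc6a6 and Slc38a2 were both highest in the cluster led by Hsph1, at 885 and 745 CPM, but 872 of its 1144 cells came from HFpEF library 2. In HFpEF library 1 Slc6a6 was at 522 CPM in the Hsph1 cluster and higher, at 563 CPM, in the cluster led by Arc. Slc1a1 varied less, from 20.99 to 43.2 CPM. These clusters share libraries and are described without a test.

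HFpEF was then compared with NC within each class, which asks whether transporter transcripts differ with the diet and L-NAME. No member had an adjusted p under 0.05 in capillary ECs (21 tested), artery ECs (18), vein ECs (17), mural cells (20) or all ECs together (24), with edgeR's quasi-likelihood test and Benjamini-Hochberg adjustment over all genes tested in the class. The calls over all genes were few as well, 0.0573% of genes in capillary ECs, 0.407% in artery ECs, 0.71% in vein ECs, 0.674% in mural cells and 0.0691% in all ECs. At an unadjusted p under 0.05 there were 3 members in capillary ECs (19.3% of all genes), 1 in artery ECs (12.1%), 5 in vein ECs (12.5%), 1 in mural cells (10.3%) and 2 in all ECs (17.8%). DESeq2 also called none of the members in any class. A permutation test of 2 against 2 libraries cannot give an exact two-sided p below 0.333, so no gene was tested that way.

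Taking the libraries alone, both HFpEF libraries stood above both NC libraries for 5 members in capillary ECs (23.3% of all genes did), 2 in artery ECs (19.2%), 4 in vein ECs (19.8%) and 4 in mural cells (17.8%). Both stood below for 8 in capillary ECs (27.5%), 3 in artery ECs (24.3%), 3 in vein ECs (23.9%) and 7 in mural cells (23.1%). The median log2 difference of the tested members was -0.01 in capillary ECs, -0.03 in artery ECs, 0.03 in vein ECs and -0.09 in mural cells, beside medians over all genes of -0.0023, -0.0026, -0.0019 and -0.0017. The share of tested members below NC was 38.1% in capillary ECs and 35% in mural cells, and 16.7% in artery ECs and 17.6% in vein ECs. The HFpEF libraries had fewer UMIs per cell and more heat shock transcripts. Hspa1a was at 2866 and 1855 CPM in the NC libraries, against 6176 and 7141 CPM in the HFpEF libraries of capillary ECs, and its part in the values of the members was not tested.

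**Figure D3:**
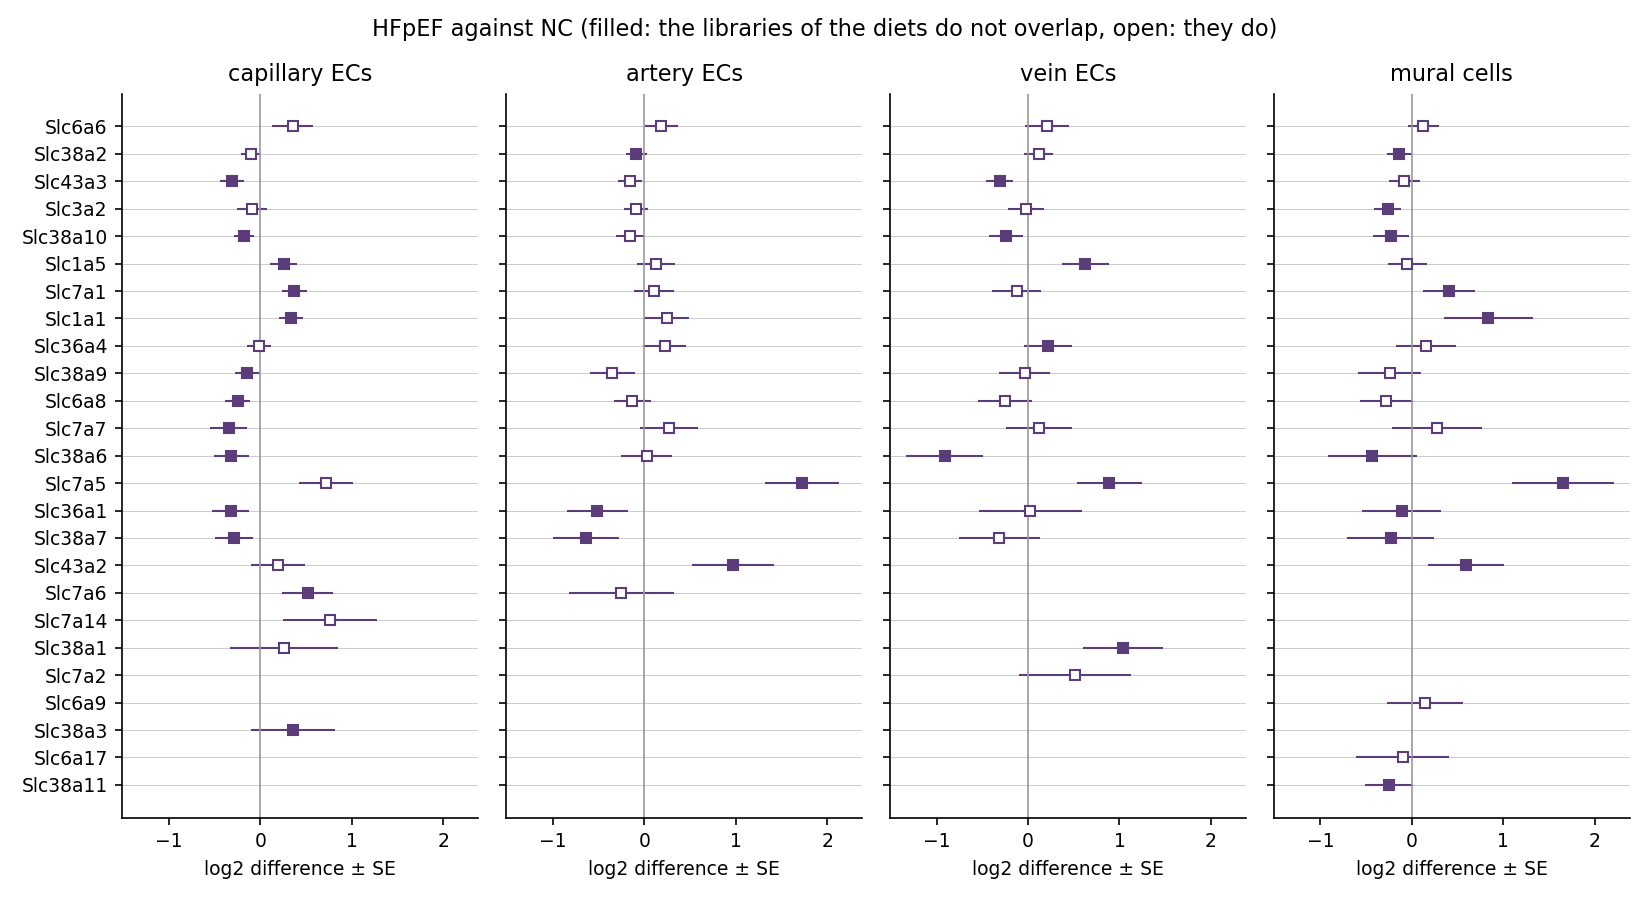
Differences between HFpEF and NC for the members tested in at least 1 class, as log2 differences with the standard error from edgeR on 2 libraries a diet. Filled squares mark members whose HFpEF libraries both lie on one side of both NC libraries, open squares those that overlap, and members that were too low in a class have no square. Slc7a5 lies right of 0 in all 4 panels, and none of the differences passed the adjusted threshold.

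Slc7a5, which lets leucine and other large neutral amino acids in, had the largest differences of the tested members in artery ECs and mural cells. It stood at 1.94 and 1.71 CPM in the NC libraries, against 4.76 and 6.46 CPM in the HFpEF libraries of artery ECs, from 9, 9, 7 and 48 UMIs. In mural cells it was at 2.44 and 2.49 CPM against 5.53 and 8.64 CPM, from 4, 6, 4 and 19 UMIs, and in vein ECs at 11.2 and 6.35 CPM against 20.4 and 14.9 CPM. In these 3 classes both HFpEF libraries were above both NC libraries, and in capillary ECs, at 7.001 and 4.19 against 6.77 and 10.7 CPM, they overlapped. The log2 differences were 1.73 in artery ECs (SE 0.41, adjusted p = 0.11), 1.65 in mural cells (SE 0.56, adjusted p = 0.25), 0.89 in vein ECs (SE 0.36, adjusted p = 0.32) and 0.71 in capillary ECs (SE 0.30, adjusted p = 0.24). The last 2 moved with single libraries. In vein ECs the value was 1.36 without NC library 1 and 0.54 without NC library 2, and in capillary ECs 1.13 without NC library 1, 0.39 without NC library 2 and 0.30 without HFpEF library 2. In artery ECs the gene passed when no count filter was set (adjusted p = 0.0098), where 331 genes passed in place of 44. The 2 artery clusters divide these same artery UMIs, with values of 2.19, 1.80, 7.62 and 8.14 CPM in the Fbln5 cluster and 1.58, 1.56, 2.45 and 5.01 CPM in the Hey1 cluster. The 7 UMIs of HFpEF library 1 were split between them, so the order within a cluster rests on very few UMIs and is no separate support.

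The heavy chain that Slc7a5 needs did not share this pattern of values. Slc3a2 was at 167 and 122 CPM in NC against 122 and 146 CPM in HFpEF capillary ECs, a log2 difference of -0.09 (SE 0.16, adjusted p = 0.79), and the libraries overlapped. In mural cells both HFpEF libraries were below both NC libraries, at 185 and 192 against 252 and 213 CPM (-0.26, SE 0.15, adjusted p = 0.58). Of the other light chains, Slc7a7 was at 7.99 and 6.96 against 4.998 and 6.37 CPM in capillary ECs (-0.34, SE 0.20, adjusted p = 0.38) and Slc7a6, named outside the rule to complete the light chains, at 1.82 and 2.15 against 3.06 and 2.70 CPM (0.52, SE 0.28, adjusted p = 0.35).

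Slc1a5, which takes up glutamine that LAT1 can then exchange, was at 52.3 and 28.4 CPM in NC against 70.6 and 57.2 CPM in HFpEF vein ECs. The log2 difference was 0.63 (SE 0.26, adjusted p = 0.34), and without NC library 1 it was 1.13 and passed (adjusted p = 0.0034), so that the value turned on that library. Without NC library 2 it was 0.25 (adjusted p = 0.84). In capillary ECs it was at 33.6 and 25.2 against 33.9 and 35.6 CPM (0.25, SE 0.15, adjusted p = 0.38), and the difference was 0.48 without NC library 1 and 0.061 without NC library 2. Slc1a1 was at 25.7 and 21.8 against 27.1 and 31.8 CPM in capillary ECs (0.33, SE 0.13, adjusted p = 0.22), with 0.22 without NC library 2 or without HFpEF library 2, and at 3.66 and 4.99 against 6.92 and 8.19 CPM in mural cells (0.84, SE 0.49, adjusted p = 0.59).

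Among the arginine carriers, Slc7a1 was at 22.0 and 18.5 CPM in NC against 23.7 and 27.7 CPM in HFpEF capillary ECs, a log2 difference of 0.37 (SE 0.14, adjusted p = 0.20). It was at 14.6 and 17.9 against 19.4 and 22.3 CPM in mural cells (0.40, SE 0.28, adjusted p = 0.69), also without overlap. In vein ECs its libraries overlapped, at 39.4 and 25.4 against 17.3 and 33.9 CPM. Slc7a2 passed the count filter in vein ECs only among the 4 classes and overlapped there too (0.51, SE 0.61, adjusted p = 0.78).

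None of the SLC38 carriers passed in a class, and the values lay on both sides of NC. Slc38a2 was at 510.0 and 477 CPM in NC against 427 and 481 CPM in HFpEF capillary ECs, with overlap (-0.11, SE 0.11, adjusted p = 0.62). It was at 719 and 686 against 617 and 631 CPM in mural cells (-0.14, SE 0.14, adjusted p = 0.80). Slc38a10 was at 63.3 and 60.2 against 49.7 and 57.7 CPM in capillary ECs (-0.18, SE 0.11, adjusted p = 0.40), and in vein ECs at 55.2 and 59.3 against 40.8 and 51.2 CPM (-0.24, SE 0.19, adjusted p = 0.64). In vein ECs Slc38a2 was at 574 and 528 against 632 and 546 CPM (0.12, SE 0.16, adjusted p = 0.81), with overlap. Slc38a1 was there at 4.98 and 3.81 against 9.41 and 8.93 CPM (1.04, SE 0.44, adjusted p = 0.35), beside the neutrophil markers seen in HFpEF library 2. Slc38a11 was at 24.996 and 23.7 against 17.98 and 20.9 CPM in mural cells (-0.25, SE 0.26, adjusted p = 0.82). Slc38a9 was at 15.4 and 16.2 against 15.2 and 13.6 CPM in capillary ECs (-0.14, SE 0.14, adjusted p = 0.61). Slc38a6 was at 11.2 and 9.32 against 7.84 and 4.76 CPM in vein ECs (-0.91, SE 0.42, adjusted p = 0.40), and the difference was -0.33 without HFpEF library 2. Of the SLC36 family, Slc36a4 differed little in capillary ECs, at 14.7 and 15.2 against 14.03 and 15.2 CPM (-0.01, SE 0.13, adjusted p = 0.99), and Slc36a1 was at 6.79 and 5.86 against 5.16 and 4.96 CPM (-0.32, SE 0.20, adjusted p = 0.41).

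Slc43a3 was at 287 and 230 CPM in NC against 216 and 197 CPM in HFpEF capillary ECs, a log2 difference of -0.31 (SE 0.14, adjusted p = 0.26) that was -0.14 without NC library 1. In vein ECs it was at 291 and 288 against 224 and 234 CPM (-0.31, SE 0.14, adjusted p = 0.40). The diets did not overlap in either class, and in vein ECs the NC libraries lay close together. In artery ECs it overlapped, at 285 and 233 against 240.0 and 219 CPM (-0.15, SE 0.13, adjusted p = 0.68).

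The taurine transporter showed that the 2 HFpEF libraries were not alike. HFpEF library 2 had the highest Slc6a6 and HFpEF library 1 the lowest in 4 of the 4 classes, at 695 and 393 CPM in capillary ECs, 1262.5 and 773 CPM in artery ECs, 897 and 417 CPM in vein ECs and 744 and 440 CPM in mural cells. The NC libraries lay between them, at 398 and 462 CPM in capillary ECs. The labels do not say whether the 2 HFpEF libraries differ in genotype. The log2 difference in capillary ECs was 0.35 (SE 0.23, adjusted p = 0.43), and without HFpEF library 2 it was -0.10. Slc6a8 was at 15.5 and 16.2 against 12.1 and 14.0 CPM in capillary ECs (-0.25, SE 0.14, adjusted p = 0.36).

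**Figure D4:**
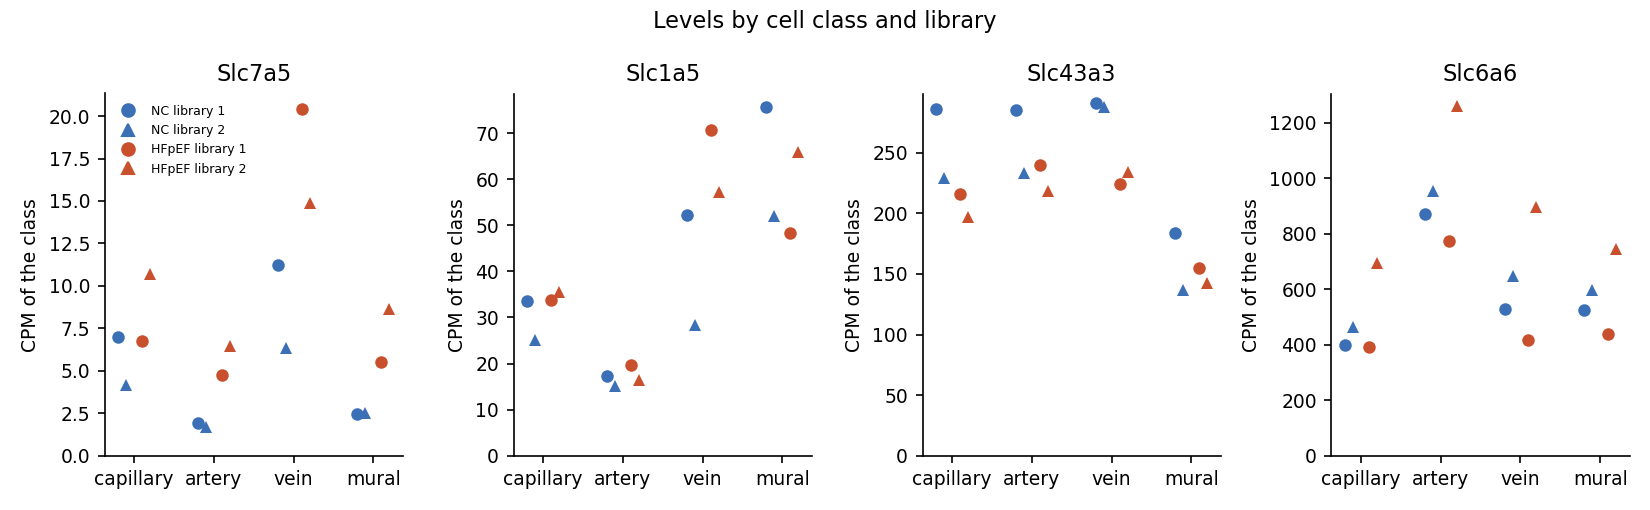
Slc7a5, Slc1a5, Slc43a3 and Slc6a6 in UMIs per 1000000 UMIs of the class (CPM), from 0, in capillary, artery and vein ECs and mural cells. Each point is 1 library, blue for NC, red for HFpEF, circles for library 1 and triangles for library 2. For Slc7a5 the red points lie above the blue ones in artery ECs, vein ECs and mural cells, and for Slc6a6 HFpEF library 2 lies on top and HFpEF library 1 at the bottom of each class.

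Whether the diet difference depended on the class was tested directly, as the difference between each class and capillary ECs. None of the 23 members tested passed in artery ECs (0.149% of all genes), vein ECs (0.0614%) or mural cells (0.447%). At an unadjusted p under 0.05 there was 1 member in artery ECs (5.49% of all genes), none in vein ECs (4.74%) and 1 in mural cells (7%). They were Slc7a5 in artery ECs, where the diet difference was larger by 0.93 (SE 0.43, adjusted p = 0.88), and Slc6a6 in mural cells, where it was smaller, at -0.25 (SE 0.10, adjusted p = 0.54). A class dependence of the diet effect was therefore not detectable for any member.

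The diets also differed in which clusters made up the capillary class. The cluster led by Gm8797, Hspa1b and Hspa1a held 2.12 and 1.99% of capillary ECs in the NC libraries, against 23.5 and 25.5% in the HFpEF libraries, and the Timp4 cluster 31.3 and 38.4% against 13.3 and 7.15%. Values were therefore also taken within each cluster, as an alternative added after the data had been seen. Both HFpEF libraries were below both NC libraries for Slc38a2 in 7 of the 8 clusters, which 0.965% of 12225 genes showed in at least 7, while 1.12% were above in as many. No other member reached 7 clusters in either direction, and Slc38a2 was singled out for its count. The clusters come from the same libraries and are not separate counts, so these shares are not p-values. With each cluster at a fixed share, Slc38a2 was at 542 and 520 CPM in NC against 424 and 463 CPM in HFpEF, no longer overlapping. For Slc43a3 both HFpEF libraries were below in 5 of 8 clusters and above in 1, a count whose share over all genes was not taken. At fixed shares it was at 269 and 222 against 217 and 202 CPM.

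At fixed shares Slc7a1 kept its order, at 19.9 and 18.9 CPM in NC against 23.9 and 25.3 CPM in HFpEF. Slc1a5, at 35.2 and 27.4 against 33.4 and 31.5 CPM, and Slc1a1, at 27.0 and 24.3 against 26.3 and 30.6 CPM, then overlapped. Slc6a6 overlapped in 8 of the 8 clusters. Slc38a10, at 55.6 and 58.8 against 49.5 and 57.7 CPM, also came to overlap at fixed shares, as did Slc7a7 and Slc7a6. The order of the diets for Slc38a2, Slc1a5, Slc1a1, Slc38a10, Slc7a7 and Slc7a6 thus changed once the shares were fixed. In 3 of the 8 clusters an NC library had under 100 cells, and no test was made.

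**Figure D5:**
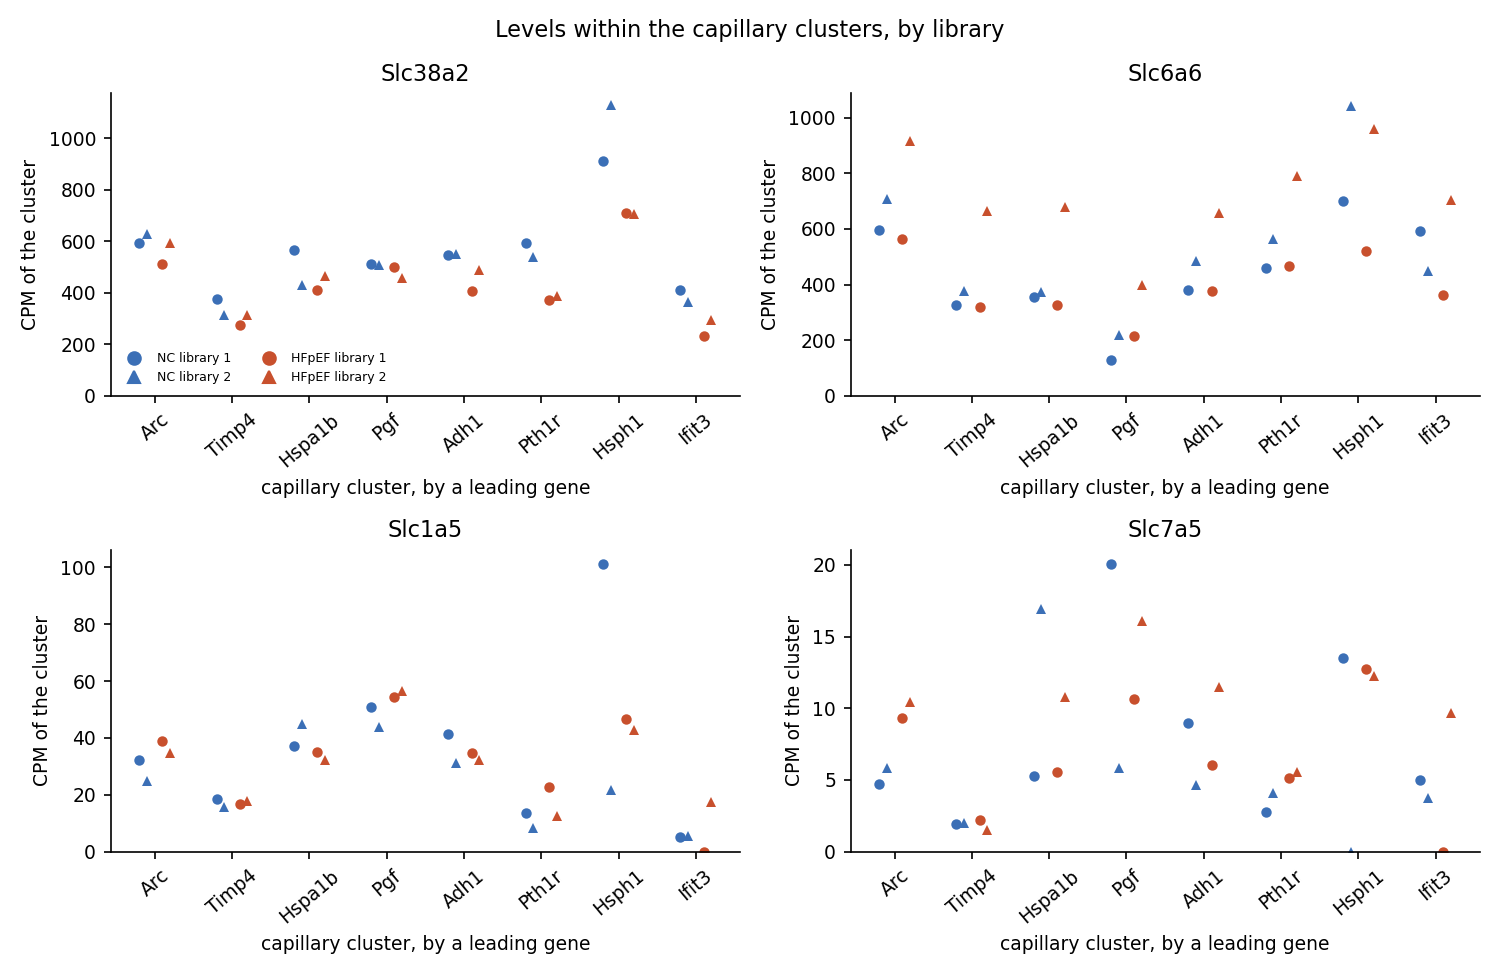
Slc38a2, Slc6a6, Slc1a5 and Slc7a5 in the 8 capillary clusters, named by a leading gene, in UMIs per 1000000 UMIs of the cluster (CPM), from 0. Each point is 1 library, blue for NC, red for HFpEF, circles for library 1 and triangles for library 2. Slc38a2 has both red points below both blue ones in 7 of 8 clusters.

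Genes of the pathways around the transporters were described by list in each class. None of the 128 genes of the 7 lists that were tested in capillary ECs passed with edgeR. Of them 31 had an unadjusted p under 0.05, beside 19.3% of all 12225 genes. DESeq2 called 9 of the lists, beside 273 of all 18089 genes it tested. Of the ATF4 and amino acid starvation list, 25 genes were tested in vein ECs and 1 fell, beside 0.71% of all 9862 genes called there in either direction. It was Eif4ebp1, a repressor of translation initiation, at 63.1 and 69.9 CPM in NC against 25.1 and 33.9 CPM in HFpEF (log2 difference -1.06, SE 0.20, adjusted p = 0.022). In capillary ECs the same gene was at 52.4 and 45.9 against 31.0 and 28.7 CPM (-0.72, SE 0.12, adjusted p = 0.063). Trib3, another target of ATF4, was at 17.995 and 15.9 against 12.1 and 7.77 CPM there (-0.84, SE 0.22, adjusted p = 0.12), and Asns, asparagine synthetase, at 17.4 and 17.4 against 19.3 and 22.9 CPM (0.31, SE 0.13, adjusted p = 0.24). Genes of the list thus lay on both sides, with a median log2 difference of 0.0045 over the 30 tested in capillary ECs.

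Of the 34 genes of lysosomal amino acid sensing tested in artery ECs 2 fell and none rose, beside 0.407% of all 10806 genes called there in either direction. Sesn1, a sestrin of the family that senses leucine, was at 29.9 and 29.5 CPM in NC against 14.96 and 12.5 CPM in HFpEF (-1.16, SE 0.18, adjusted p = 0.025). Castor1, the cytosolic arginine sensor, was at 87.4 and 78.7 against 51.7 and 32.9 CPM (-1.05, SE 0.20, adjusted p = 0.048). Both were also lower in capillary ECs, Sesn1 at -0.92 (SE 0.18, adjusted p = 0.083) and Castor1 at -0.97 (SE 0.25, adjusted p = 0.11), without passing there.

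None of the genes of arginine and citrulline metabolism passed in the 5 diet comparisons (11 or 12 of 15 tested in each). Odc1, which makes polyamines from ornithine, was at 76.4 and 94.2 CPM in NC against 137 and 149 CPM in HFpEF capillary ECs (0.75, SE 0.12, adjusted p = 0.065). Of glutamine, glutamate and aspartate metabolism, Glul, glutamine synthetase, was at 140.2 and 132 against 166 and 185 CPM (0.38, SE 0.10, adjusted p = 0.13). None of the genes of that list passed in a class. Of branched-chain amino acid catabolism, Bckdha, a subunit of the branched-chain keto acid dehydrogenase, was at 27.4 and 34.7 against 21.6 and 22.1 CPM (-0.49, SE 0.14, adjusted p = 0.13), and none of the 12 genes tested passed. None of the 12 tested transporters of other families passed either. In the list of dissociation and immediate early genes, Hspa1a and Hspa1b rose in artery ECs, vein ECs and mural cells, and Dnajb1 in mural cells. Hspa1a was higher by 1.60 in artery ECs (SE 0.24, adjusted p = 0.020), by 1.56 in vein ECs (SE 0.26, adjusted p = 0.013) and by 1.38 in mural cells (SE 0.19, adjusted p = 0.00079). In these classes both HFpEF libraries were also above both NC libraries for Slc7a5. In capillary ECs Hspa1a was higher in both HFpEF libraries as well, without passing, while Slc7a5 overlapped between the diets. The relation of these genes was not tested.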

How the data were processed

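Single-cell RNA-seq (10x Genomics 3′ chemistry) was made from RFP+ cells of the left ventricle, 2 NC and 2 HFpEF libraries. The authors trimmed reads with fastp, aligned and counted them with Cell Ranger 5.0.1 on mm10, and deposited unnormalised UMI counts per gene and cell. Their text describes equalising mapped reads per cell across libraries. The labels gave the diet of each library and no genotype.

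Cells with over 200 genes, under 20% mitochondrial UMIs and under 1% hemoglobin UMIs were kept, clustered without the members and mitochondrial genes (python-igraph 0.11.9, scikit-learn 1.9.0) and named by marker lists. No doublet caller was run. Leaving out the 5% of cells with most UMIs in each library, over all classes, stood in for one. Mural cells, with medians of 5604 and 5971.5 UMIs in the NC libraries against 3940 and 4290.5 in capillary ECs, could lose a larger share. Counts were summed per library and class. edgeR 4.0.16 (TMM, quasi-likelihood test, R 4.3.3) with Benjamini-Hochberg adjustment over all genes tested compared the diets, and a fit with library as a block compared classes and diet by class, with a threshold of 0.05. In simulated capillary counts over 12079 genes, 129 of 200 genes changed by a log2 fold of 1 were recovered, with 13 false calls, and over 12103 genes 190 of 200 with a log2 fold of 2, with 16 false calls. These counts were drawn at the fitted dispersions of the capillary sums without library effects. They cover genes of all levels together and do not speak for the shallower classes or for members of a few CPM. Intervals and floors cover counting error only.

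The genes named were those with a mean of at least 20 CPM in all ECs or mural cells, those past the threshold in any test, and per class and direction up to 5 with the largest fold among those with at least 10 CPM and no overlap between diets. For pathway lists they were the genes called and up to 4 with the largest fold. The members and lists were chosen with earlier results of these data known. Alternatives were DESeq2 1.42.0, RLE normalization, no count filter, a replicate block, leaving out each library, at least 1000 UMIs per cell, thinning to 1000 UMIs, other clustering resolutions and a cell by cell marker gate. The clusters within capillary ECs were compared after the data had been seen.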

Additional observations from a re-analysis of the deposited data

Results flagged for a closer look

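Some members stood at 10 CPM or more in small clusters outside the 4 classes and at least 5 times above the highest class. They were chosen after their values were seen, and the diets were not compared in these clusters because they held few cells.

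In the cluster led by Ccl21a (317 cells) Slc38a4, a neutral amino acid transporter, was at 21.6 CPM from 32 UMIs, with no UMI in the 4 classes. By library it was at 4.94 and 20.6 CPM in NC against 23.1 and 35.3 CPM in HFpEF. Slc7a2 was at 22.3 CPM there (33 UMIs) and Slc7a6 at 12.8 CPM (19 UMIs), both with no UMI in HFpEF library 1. In the fibroblast-like cluster (125 cells) Slc7a2 was at 41.1 CPM (22 UMIs), and Slc7a6 and Slc43a1 were each at 15 CPM from 8 UMIs.

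In the leukocyte cluster (341 cells) Slc38a1 was at 55.7 CPM (84 UMIs), at 70.9 and 45.7 CPM in NC against 61.9 and 58.7 CPM in HFpEF. Slc7a8 was at 10.6 CPM there (16 UMIs).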

How the results depend on the processing

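The diet comparison rested on 2 libraries a diet, and the HFpEF libraries had fewer UMIs per cell. The number of members called for diet was 0 in each class, and 1 in artery ECs with no count filter (Slc7a5). It was 1 in vein ECs with a replicate block and 0 to 1 on leaving out each library (Slc1a5 without NC library 1). Leaving out a library left 1 diet with 1 library, assumed to vary like the others. Among the members' class differences the cell by cell marker gate kept 5 of 12 in vein ECs and 2 of 16 in mural cells, from smaller sums in which Slc38a1 in vein ECs and Slc38a1, Slc38a11, Slc6a17 and Slc6a9 in mural cells could not be tested. Of 34 called class differences, 15 kept direction and call under every alternative in which they were tested and 24 under every one but the gate. Pathway genes called in capillary ECs were 0 in the main comparison, 9 with DESeq2, 8 with a replicate block and 0 to 6 on leaving out each library (6 without HFpEF library 1). The pathway genes called in artery ECs, vein ECs and mural cells were not followed over the alternatives.

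Some diet differences turned sign. In capillary ECs Slc6a6 was at -0.10 without HFpEF library 2, in a range of -0.10 to 0.69, and Slc3a2 at 0.01 without HFpEF library 1 and 0.15 without NC library 1, in a range of -0.30 to 0.15. Slc38a10 in vein ECs was at 0.065 with the gate and 0.12 after thinning. In mural cells Slc38a2 was at 0.27 with the gate and 0.015 after thinning, and Slc38a11 at 0.12 without the deepest cells. Of the class differences, Slc6a8 in artery ECs turned to -0.030 with the gate, and Slc6a6 in mural cells to -0.050 with the gate and -0.12 without the deepest cells. Other diet differences moved by over 1.5 times on leaving out a library. In capillary ECs Slc38a2 was at -0.043 without HFpEF library 1, -0.18 without HFpEF library 2 and -0.057 without NC library 1, Slc38a10 at -0.11 without HFpEF library 1 and -0.28 without HFpEF library 2, and Slc38a9 at -0.22 and -0.027 without the same libraries. Slc38a10 in vein ECs was at -0.43 and Slc38a11 in mural cells at -0.38 without HFpEF library 2, and Slc3a2 in mural cells at -0.14 without NC library 1. The cause was not tested.

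Counts over all genes moved more. Of 7 genes called in capillary ECs there were 273 with DESeq2, 206 with the block, 2 with no filter, 1 to 141 on leaving out each library, 2 at 1000 UMIs or more, 26 with hemoglobin-rich cells, 78 after thinning, 3 without the deepest cells, 37 with the gate, 46 and 1 at resolutions 0.4 and 1.2, and 1 with the unnamed cells added. Of 9 in all ECs there were 270 with DESeq2, 725 with no filter, 193 with the block, 24 to 215, 1 with hemoglobin-rich cells, 55 after thinning and 18 without the deepest cells. Of 44 in artery ECs there were 331 with no filter, 136 with the block, 4 to 252, 13 with hemoglobin-rich cells, 25 without the deepest cells, 72 with the gate and 11 at resolution 0.4. Of 70 in vein ECs there were 34 with DESeq2, 274 with no filter, 187 with the block, 18 to 240, 148 with hemoglobin-rich cells and 7 with the gate. Of 68 in mural cells there were 13 with DESeq2, 176 with no filter, 166 with the block, 91 to 141, 22 at 1000 UMIs or more, 3 after thinning, 31 without the deepest cells, 15 with the gate and 45 at resolution 0.4. The gate lowered the class calls from 3669 to 1885 in artery ECs, 2951 to 1804 in vein ECs and 5576 to 1929 in mural cells. Resolution 0.4 gave no vein class and was not run there or for the class comparisons.

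Libraries with the same number did not deviate together (correlations of 0.0177, 0.0141, 0.00348 and -0.0048 in capillary, artery, vein and mural sums and -0.0108 in all ECs). The numbers were therefore not taken as a pairing, though such a correlation cannot show a factor shared in few genes. The replicate block moved the calls as given above, and Slc1a5 in vein ECs was then at 0.77 (adjusted p = 0.046). Over its alternatives the adjusted p of Slc1a5 ranged from 0.0034 to 0.98.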
